A study of Mus musculus with 4 samples.

Results

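The genes described here are those of cytokine, tumour necrosis factor (TNF) and innate immune signalling: interleukins, chemokines, interferons and their receptors, the TNF ligand and receptor families, and the Toll-like receptor, TRAF, NF-kB, JAK, STAT, SOCS and IRF proteins that act below them. They were chosen by gene symbol alone, and 103 of the 11993 genes with linked open regions in the series met the rule. They were linked to 132 of the 12477 open regions. Some symbols match by name only: Traf3ip1 encodes a protein of the primary cilium, and Irf2bp2 and Irf2bpl proteins that were named for binding to IRF2. These genes were kept and are described as such. ATAC-seq, which reads chromatin accessibility by letting the Tn5 transposase insert sequencing adapters into open DNA, was run on nuclei of frozen subcutaneous white fat from wild-type mice. There were 2 male and 2 female libraries (male 1 and 2, female 1 and 2), and the sexes are the groups of the design. All 4 libraries share the tissue and the wild-type genotype, while no source used here gives strain, age or the number of animals per library. Nothing in the labels says that the libraries of a sex are from different animals, and the p-values thus measure the spread between these samples, which may be technical.

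White fat holds adipocytes and, between them, macrophages, lymphocytes, endothelium and stromal cells, and most of these cells send or receive cytokines. Cytokine receptors without enzymes of their own signal through JAK kinases, which phosphorylate STAT factors, and SOCS proteins are induced by STATs and switch the receptors off. TNF, interleukin 1, interleukin 17 and Toll-like receptors signal through TRAF adaptors to the NF-kB factors, which IkB proteins hold in the cytoplasm and which induce their own inhibitors, among them IkB-alpha and A20. In adipose tissue these pathways are known for their part in insulin resistance and in the recruitment of leukocytes. In bulk tissue, fewer cells of a type and less open chromatin per cell cannot be told apart.

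A value is a peak height: the number of overlapping tags at a peak, scaled per library before deposit and averaged over the regions linked to a gene. One tag was worth 0.707 in male 1, 0.734 in male 2, 1.0 in female 1 and 0.822 in female 2, and the depth of the libraries in reads is unknown. The libraries differed as wholes. Over all genes the mean height was 25.3 in male 1 and 16.8 in male 2, against 40.9 in female 1 and 32.5 in female 2, and the median log2 difference of height + 9, male minus female, was -0.63. A difference given below as relative has this shift taken away, so that 0 is the median of all genes. Of 11 adipocyte markers, 7 were measured, with summed heights of 129.7 and 78.9 in male 1 and 2 and 256.5 and 201.4 in female 1 and 2. Of these 7, 3 shared every region with another gene, 4 had a called peak in a single library and 0 had one in male 2. The defining adipocyte genes Adipoq, Fabp4, Plin1 and Lep, and the signalling genes Tnf, Nfkb1 and Tlr4, were not analysed here.

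Regions of these genes had lower peaks in males than in females, by about the same amount as those of other genes. Median member heights were 24.7 in male 1 and 14.3 in male 2, against 38.0 in female 1 and 31.2 in female 2. Over all genes the medians were 24.0 and 14.7 in males 1 and 2, against 38.0 and 30.2 in females 1 and 2. The median log2 difference of the members was -0.69, or -0.06 relative to all genes, and single members ranged from -1.80 to 0.17. Both males lay below both females for 83 members (80.6%), where 76.4% of all genes showed this order. In the limma test over all genes with Benjamini-Hochberg adjustment, 2 members (1.94%) passed an adjusted p of 0.05 as lower in males, against 0.592% of all genes: the receptors Tnfrsf25 and Il17re. A region is listed only where a peak was called in some library, and for both genes that was in females alone. The test on the same heights is thus not independent of how these regions entered the data. No member passed as higher, against 0.0% of all genes. At an unadjusted p under 0.05, 42 of the 103 members were lower and 0 higher, while 3768 of the 11993 genes were lower and 1 was higher.

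The plot of differences by role shows that the role groups covered much of the range of all genes. Counts of members with both males below both females, given per group below, stand against 76.4% of all genes. The group medians ran from -0.87 for the pair of IRF2-binding proteins and -0.86 for the TRAF proteins to -0.40 for the pair of Toll-like receptors. Relative to all genes, 58 members (56.3%) lay below the median and 45 above it. Of the 2 members that passed and the 3 just outside the threshold, 3 were interleukin receptors, a group of 18 of the 103 members. Among these 3, Il17re and Il17rc share a region, so they are not separate measurements.

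**Figure D1:**
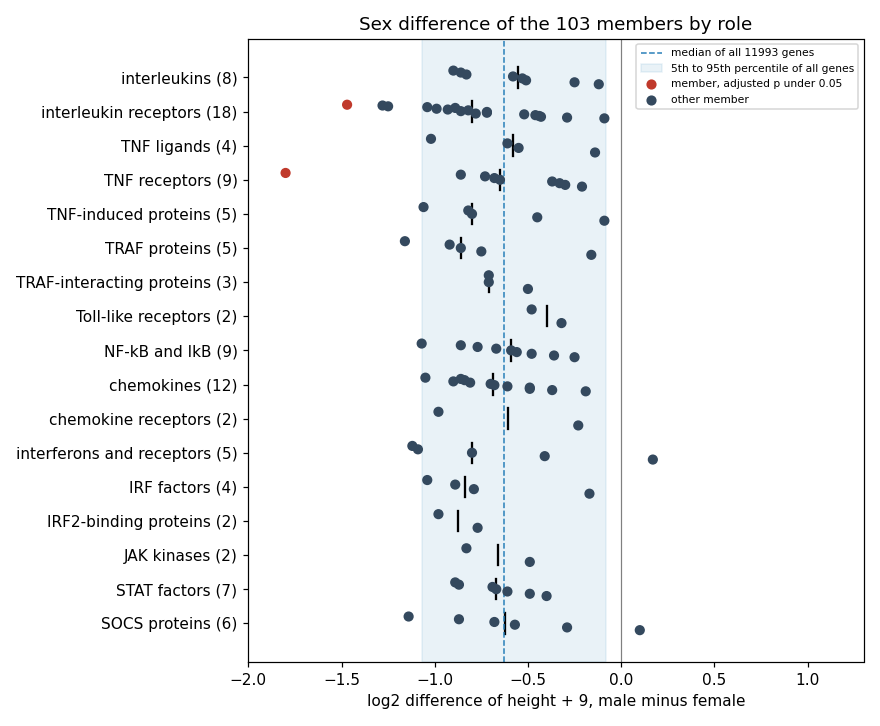
Log2 difference of height + 9, male minus female (horizontal axis), for each of the 103 genes, grouped by role with the number of genes in brackets; each point is a gene, the short black line is the group's median, the dashed line is the median of all 11993 genes (-0.63) and the shaded band their 5th to 95th percentile (-1.07 to -0.08). Tnfrsf25 (-1.80) and Il17re (-1.47), in red, passed the test, and the points right of 0 are Ifnar2 (0.17) and Socs1 (0.10).

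The interleukin receptor group had 18 members, of which 15 (83.3%) had both males below both females, against 76.4% of all genes. Its median log2 difference was -0.80, or -0.17 relative to all genes, and 1 member passed the test. Il17re (GeneID 57890), the receptor subunit for interleukin 17C, had heights of 10.6 in male 1 and 6.24 in male 2, against 49.5 in female 1 and 30.0 in female 2. Both males were well below the lower female. The log2 difference was -1.47 (SE 0.367, limma adjusted p = 0.0283), or -0.84 relative to all genes. A region near its start (mm10, chr6:113458683-113458827) had peaks in the females alone, with summits of 35.0 in female 1 and 22.2 in female 2. The other region (chr6:113471351-113471530) lies at the start of the neighbouring receptor gene Il17rc and had summits of 64.0 in female 1 and 37.8 in female 2, again with no peak in a male. The promoter window of Il17re, from 250 bases before to 50 after a transcript start, overlaps the first of these regions and is shown because that region lies near the gene's own start; the called value is the average of both regions, and neither was tested alone. It comes from RefSeq (GRCm38.p6, chr6:113458521-113458820, plus strand) and held none of the NF-kB, STAT, interferon, AP-1 or CRE motifs defined further on, so that no base is in capitals.
Il17re: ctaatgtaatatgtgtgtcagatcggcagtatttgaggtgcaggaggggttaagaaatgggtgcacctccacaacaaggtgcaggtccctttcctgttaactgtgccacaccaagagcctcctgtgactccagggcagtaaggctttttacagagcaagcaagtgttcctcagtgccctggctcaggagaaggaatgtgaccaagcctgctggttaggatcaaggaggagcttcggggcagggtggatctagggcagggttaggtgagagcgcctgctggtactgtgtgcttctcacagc

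Other receptors of the interleukin 17 family had differences in the same direction that did not pass. Il17rc, a subunit of the receptor for interleukin 17A and 17F, had heights of 24.7 in male 1 and 11.0 in male 2, against 64.0 in female 1 and 43.2 in female 2 (log2 -1.25, relative -0.62, limma adjusted p = 0.0902). It shares 1 of its 2 regions with Il17re, so these genes are not separate measurements. Il17rd, a receptor that also dampens growth factor signalling, had 21.2 in male 1 and 7.34 in male 2, against 44.0 in female 1 and 30.4 in female 2 (relative -0.41). Il17rb, the interleukin 25 receptor, had 11.3 and 8.81 in males 1 and 2, against 34.0 and 19.7 in females 1 and 2 (relative -0.26), from an upstream region that it shares with Chdh. Il17ra, the subunit common to these receptors, had 12.0 in male 1 and 9.30 in male 2, against 23 in female 1 and 15.6 in female 2, and lay at 0.11 relative to all genes. In each of the 5 genes both males were below both females, which was the order of most genes.

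Il2rg, the gamma chain common to the receptors of several lymphocyte growth factors, was nearest to the threshold from outside. It had heights of 21.2 in male 1 and 3.67 in male 2, against 40.0 in female 1 and 37.0 in female 2 (log2 -1.28, relative -0.65, limma adjusted p = 0.0596). Male 2 stood far below male 1. The region lies on the X chromosome (chrX:101273942-101274216), 5842 bp upstream of the gene, and is linked also to Med12, so the height cannot be assigned to Il2rg alone. Traf4 (adjusted p = 0.0935) was the next outside after Il17rc.

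The receptor genes Il6st and Il4ra had called peaks at their starts. Il6st, the signal-transducing chain gp130, had 43.1 in male 1 and 18.4 in male 2, against 60.0 in female 1 and 72.3 in female 2 (log2 -0.99, adjusted p = 0.125). Il4ra, the receptor chain for interleukins 4 and 13, had 33.2 in male 1 and 10.3 in male 2, against 56.0 in female 1 and 36.2 in female 2 (log2 -0.93). Il6ra, the chain that binds interleukin 6 and pairs with gp130, had 26.9 in male 1 and 20.6 in male 2, against 38.0 in female 1 and 32.1 in female 2 (relative 0.20), and its single region, 51786 bp beyond the start, is shared with She. Il1r1 encodes the signalling receptor of interleukin 1. It had 14.8 in male 1 and 11.0 in male 2, against 13.0 in female 1 and 15.6 in female 2, so that the sexes overlapped (log2 -0.09, adjusted p = 0.824). It lay at 0.54 relative to all genes, the highest of the group, and had a called peak in female 2 alone.

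Among the 8 interleukins, 6 had both males below both females, none passed the test, and the median log2 difference was -0.55. Il34, which encodes a ligand of the receptor of colony-stimulating factor 1, had 7.78 in male 1 and 8.08 in male 2, against 24.0 in female 1 and 21.4 in female 2 (log2 -0.90, relative -0.27, limma adjusted p = 0.113). The libraries of each sex lay close together. Il25, the ligand of Il17rb, had 4.95 in male 1 and 7.34 in male 2, against 15.0 in female 1 and 22.2 in female 2 (log2 -0.86), from a region 6743 bp upstream. Il6 had 19.1 and 6.61 in males 1 and 2, against 24.0 and 18.1 in females 1 and 2, so that male 1 lay between the females. Il7, a growth factor of lymphocytes, had 11.3 in male 1 and 5.87 in male 2, against 9.0 in female 1 and 10.7 in female 2 (relative 0.51). The sexes overlapped for Il7, whose called peak was in male 1. Il1a, at 29.7 and 31.6 in males 1 and 2 and 34.0 and 42.7 in females 1 and 2, is linked to a region 12580 bp downstream of its start that it shares with Ckap2l.

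The TNF receptor family had 9 members, 8 of them (88.9%) with both males below both females, against 76.4% of all genes. Its median was -0.65 (relative -0.02). Tnfrsf25 (GeneID 85030), known as death receptor 3 and expressed on T cells, had heights of 1.41 in male 1 and 1.47 in male 2, against 23 in female 1 and 32.1 in female 2. These were 2 tags in each male, against 23 and 39 tags in female 1 and 2. The males were near 0 and the sexes far apart. The log2 difference was -1.80 (SE 0.341, limma adjusted p = 0.000575), or -1.17 relative to all genes, and it depends on the pseudocount, since the males had so few tags: it was -3.53 with a pseudocount of 1 and -0.76 with one of 36. The region (chr4:152107637-152107719) lies 8631 bp upstream of Tnfrsf25 inside Plekhg5, with which it is shared, and had a called peak in female 2 alone. The height therefore cannot be assigned to Tnfrsf25 rather than Plekhg5. In males 1 and 2 it stood at the 0.2 and 0.4 percentile of all genes, and in females 1 and 2 at the 13.9 and 56.0 percentile.

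The other 8 TNF receptors ranged from -0.23 to 0.41 relative to all genes. Tnfrsf17, known as BCMA and expressed on plasma cells, was the lowest of them, with 20.5 in male 1 and 12.5 in male 2, against 56.0 in female 1 and 23 in female 2 (log2 -0.86, adjusted p = 0.135), and its region, 9071 bp beyond the start, is linked also to Snx29. Tnfrsf1a, the main receptor of TNF itself, had 29.0 in male 1 and 19.1 in male 2, against 37.0 in female 1 and 22.2 in female 2 (log2 -0.21, relative 0.41, adjusted p = 0.634). It was the TNF receptor whose sexes overlapped. Its region, inside the gene and 5029 bp beyond the start, had a called peak in female 1 alone and is linked also to Plekhg6 and Scnn1a. Tnfrsf12a, the receptor of the ligand TWEAK, had 26.9 in male 1 and 26.4 in male 2, against 44.0 in female 1 and 28.8 in female 2 (relative 0.30), from a region shared with 5 other genes. Tnfrsf14, known as HVEM, had 22.6 in male 1 and 15.4 in male 2, against 26.0 in female 1 and 24.7 in female 2 (relative 0.32). Tnfrsf9, known as 4-1BB, had 32.5 in male 1 and 16.2 in male 2, against 50.0 in female 1 and 39.5 in female 2 (relative -0.10). In each of these last 3 genes both males were below both females.

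Of the 4 TNF ligands, 2 had both males below both females. Tnfsf15, the ligand of Tnfrsf25, had 12.7 in male 1 and 5.14 in male 2, against 26.0 in female 1 and 11.5 in female 2 (log2 -0.61, relative 0.02). Male 1 lay above female 2. Tnfsf12, which encodes TWEAK, had 24.7 in male 1 and 22.0 in male 2, against 37.0 in female 1 and 39.5 in female 2 (relative 0.08). Tnfsf9, the ligand of Tnfrsf9, had 5.66 in male 1 and 11.0 in male 2, against 9.0 in female 1 and 10.7 in female 2 (relative 0.49), at an upstream region shared with Tubb4a. The sexes overlapped there, and the called peak was in male 2. Tnfsf13, which encodes APRIL, had 40.6 and 18 in males 1 and 2, against 71.0 and 60.0 in females 1 and 2 (relative -0.39). Its regions lie 3506 and 13042 bp from its start and are linked also to Eif4a1 and Senp3, so the height cannot be assigned to Tnfsf13. The nearer one is also a region of Tnfsf12, so these ligands are not separate measurements.

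The TRAF adaptors, which carry the signal from TNF, interleukin 1 and Toll-like receptors, ranged from -1.16 to -0.16. Of 5 members 4 had both males below both females, the median was -0.86 and none passed. Traf4 had 16.3 in male 1 and 8.08 in male 2, against 60.0 in female 1 and 22.2 in female 2 (log2 -1.16, relative -0.53). Its region had a called peak in female 1 alone and is linked also to Fam222b and Nek8. Traf2, the adaptor of the TNF receptors, had 39.2 in male 1 and 19.1 in male 2, against 68.0 in female 1 and 53.8 in female 2 (log2 -0.92, relative -0.29, adjusted p = 0.135). Traf6, the adaptor of interleukin 1, interleukin 17 and Toll-like receptors, had 23.3 in male 1 and 14.7 in male 2, against 18 in female 1 and 26.3 in female 2. Here male 1 and female 2 were the high libraries and the sexes overlapped (log2 -0.16, relative 0.47, adjusted p = 0.713). Traf7 had the highest peak of the group, at 53.0 and 36.7 in males 1 and 2, against 96.0 and 79.7 in females 1 and 2, from a start region shared with Rab26. Traf3ip2, the adaptor known as Act1 that joins interleukin 17 receptors to Traf6, had 31.1 in male 1 and 8.81 in male 2, against 27.0 in female 1 and 44.4 in female 2 (relative -0.09). The 2 Toll-like receptors, Tlr6 (relative 0.15) and Tlr12 (relative 0.31), are linked to regions outside the genes, and the sexes overlapped in both.

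In the plot of heights by library for 12 genes, the males are lower in each gene of the upper row, and in the lower row the sexes overlap, apart from Ifnar2, where both males are higher, and Irf1, where both are slightly lower.

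**Figure D2:**
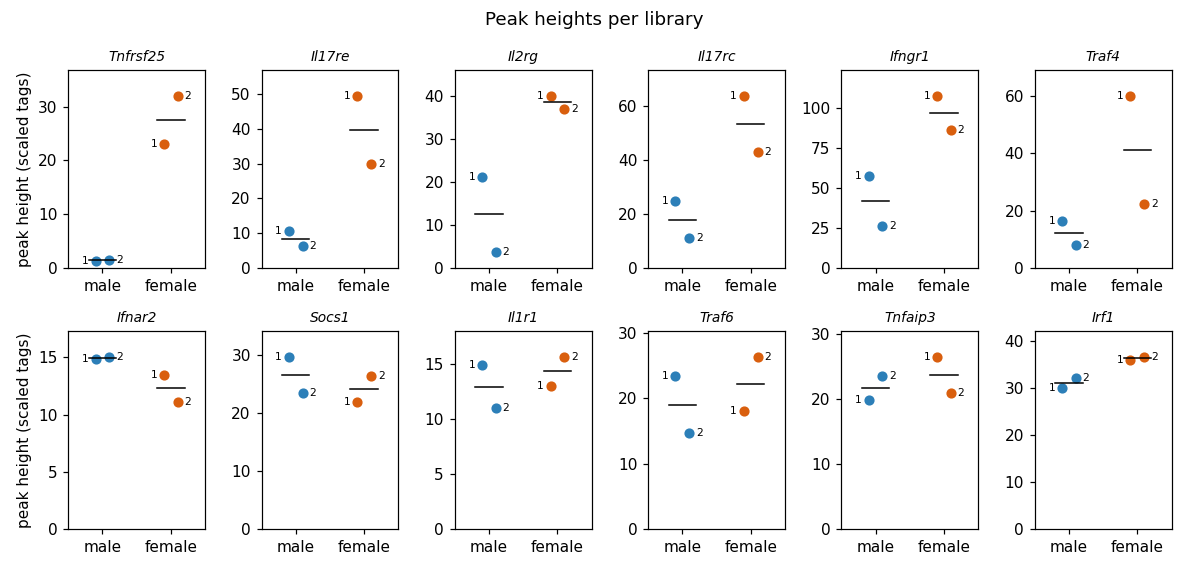
Peak height in scaled tags (vertical axis, from 0) in male and female libraries, numbered 1 and 2, for 12 genes; points are libraries and bars the mean of the 2 libraries of a sex. Tnfrsf25 has 1.41 and 1.47 in males against 23 and 32.1 in females, while Ifnar2 has 14.8 and 15.1 in males against 13.5 and 11.1 in females.

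NF-kB factors and their IkB inhibitors had 9 members, 8 with both males below both females, and a median of -0.59; none passed. Nfkbiz, a nuclear IkB protein that works with NF-kB at a subset of its targets, had the lowest difference. It had 19.8 in male 1 and 8.44 in male 2, against 43.0 in female 1 and 33.7 in female 2 (log2 -1.07, relative -0.44, limma adjusted p = 0.0992), from regions inside the gene. Rela, the p65 subunit, had 27.6 in male 1 and 9.91 in male 2, against 28.0 in female 1 and 27.5 in female 2 (relative 0.15). Male 2 stood apart there, while male 1 was at the level of the females. Nfkbib, which encodes IkB-beta, had 35.3 in male 1 and 36 in male 2, against 45.0 in female 1 and 43.6 in female 2 (log2 -0.25, relative 0.37). Nfkbia, which encodes IkB-alpha, had 25.1 in male 1 and 31.9 in male 2, against 47.0 in female 1 and 32.1 in female 2 (log2 -0.36, relative 0.27, adjusted p = 0.443). Male 2 was level with female 2. Relb, the partner of p52, had 29.7 and 20.2 in males 1 and 2, against 55.5 and 41.9 in females 1 and 2 (relative -0.14).

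A20, the ubiquitin-editing enzyme that ends NF-kB signalling, is encoded by Tnfaip3, which had 19.8 in male 1 and 23.5 in male 2, against 26.5 in female 1 and 21.0 in female 2. Male 2 lay between the females (log2 -0.09, relative 0.54, limma adjusted p = 0.834). At its start region (chr10:19015121-19015399) called peaks were in male 2, with a summit of 33.0, and in female 2, with a summit of 25.5. The other genes named as TNF-induced gave 36.8 and 16.2 in males 1 and 2, against 61.0 and 62.5 in females 1 and 2, for Tnfaip8 (relative -0.43), and 18.4 and 6.61, against 25 and 30.4, for Tnfaip2 (relative -0.20). Tnfaip1, an adaptor of a ubiquitin ligase, had 38.2 and 40.4 in males 1 and 2, against 64.0 and 50.1 in females 1 and 2 (relative 0.18). These were groups without overlap, and none passed.

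Promoter windows were searched on both strands for kappaB (GGANNTTCC, bound by NF-kB), GAS (TTCNNNGAA, bound by STATs), ISRE (GAAANNGAA, bound by IRFs and ISGF3), AP-1 (TGANTCA) and CRE (TGACGTCA), and for SP/KLF (GGGCGG) and ETS (CCGGAAG) as motifs of promoters in general. Of 103 members, 77 had windows in the RefSeq table, and 45 windows of 44 members overlapped an open region. In these 45 windows kappaB was found in 5 (11.1%), GAS in 6 (13.3%) and ISRE in 9 (20.0%). Of all 7745 windows that overlap an open region, 4.82% held kappaB, 6.08% GAS and 5.93% ISRE, and of all 32815 windows 4.26%, 8.29% and 8.55% did. AP-1 was in 2.22% of the member windows (3.82% of all open windows), CRE in 2.22% (3.78%), SP/KLF in 77.8% (73.1%) and ETS in 8.89% (22.7%). A match is a string of letters and not a site shown to be bound, and it need not lie in the open region that its window overlaps. The windows of the NF-kB inhibitors Nfkbia (chr12:55492598-55492897, minus strand) and Tnfaip3 (chr10:19015361-19015660, minus strand), of RefSeq and GRCm38.p6, are shown because these genes lay above the shift of all genes. Capitals mark the matches of kappaB, GAS, ISRE, AP-1 and CRE, and positions count from the transcript start to the first base of a match. Nfkbia has kappaB at -178 and -29 and ISRE at -53, and Tnfaip3 has AP-1 at -136 and kappaB at -24. All of these matches lie outside the open regions that the windows overlap (chr12:55492520-55492660 and chr10:19015121-19015399).
Nfkbia: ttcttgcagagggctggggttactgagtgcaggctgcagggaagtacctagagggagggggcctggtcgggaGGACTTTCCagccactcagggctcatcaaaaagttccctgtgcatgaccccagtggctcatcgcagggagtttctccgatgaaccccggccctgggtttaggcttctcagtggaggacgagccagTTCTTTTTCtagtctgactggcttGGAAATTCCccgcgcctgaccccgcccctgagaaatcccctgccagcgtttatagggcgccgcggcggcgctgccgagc
Tnfaip3: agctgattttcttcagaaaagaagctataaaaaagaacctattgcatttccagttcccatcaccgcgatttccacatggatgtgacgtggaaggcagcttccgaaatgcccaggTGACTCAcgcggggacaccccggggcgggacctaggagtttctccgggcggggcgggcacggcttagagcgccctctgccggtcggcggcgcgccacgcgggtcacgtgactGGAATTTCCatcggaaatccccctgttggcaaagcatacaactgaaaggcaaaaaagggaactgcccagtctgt

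The chemokines, which draw leukocytes along gradients, had 12 members, 10 with both males below both females, a median of -0.69 (relative -0.06) and none that passed. Ccl2, which attracts monocytes into fat, had 17.7 in male 1 and 10.3 in male 2, against 39.0 in female 1 and 25.5 in female 2 at its start (log2 -0.84, relative -0.21, limma adjusted p = 0.135). Cxcl1, which attracts neutrophils, had low heights, 5.66 in male 1 and 1.47 in male 2, against 19.0 in female 1 and 9.04 in female 2 (log2 -0.86, relative -0.23), at a region 6141 bp upstream. They were the lowest of the group in each library but female 1, where Ccl28 was lower. Ccl2 and Cxcl1 each had a called peak in female 1 alone. Cxcl9, a ligand of CXCR3 induced by interferon gamma, had 21.9 in male 1 and 8.08 in male 2, against 38.0 in female 1 and 25.5 in female 2 (relative -0.18). Cxcl10 and Cxcl11, the other CXCR3 ligands, are linked to a single common region and so carry the same measurement, 21.2 and 12.5 in males 1 and 2, against 33.0 and 21.4 in females 1 and 2 (relative 0.14). Cxcl17 had 25.8 and 17.3 in males 1 and 2, against 61.5 and 46.9 in females 1 and 2 (log2 -1.05), but its regions are those of Lipe, which encodes hormone-sensitive lipase of the adipocyte, and lie 17142 bp from its own start. Ccl1 had 14.8 in male 1 and 15.4 in male 2, against 23 in female 1 and 14.8 in female 2 (relative 0.43), with overlap.

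Of the 2 chemokine receptors, Ccr10, the receptor of Ccl27a and Ccl28, had 27.6 in male 1 and 13.0 in male 2, against 52.7 in female 1 and 41.9 in female 2 (log2 -0.98, relative -0.35), and it shares all its regions with Plekhh3. Of its ligand genes, Ccl27a had 26.2 and 20.6 in males 1 and 2, against 61.0 and 42.7 in females 1 and 2, from the start region of Il11ra1, 13696 bp from its own start. Ccl28 had 15.6 and 7.34, against 14.0 and 37.0, with overlap, at a region 6571 bp upstream. The heights of Ccr10 and Ccl27a thus cannot be assigned to these genes alone. Cxcr4, the receptor of CXCL12, had low peaks at its start, 7.07 in male 1 and 5.14 in male 2, against 11.0 in female 1 and 6.58 in female 2 (relative 0.40). Male 1 lay above female 2.

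The 5 interferons and interferon receptors had a median of -0.80 and ranged from -1.12 to 0.17; 3 had both males below both females and none passed. Ifngr1, the ligand-binding chain of the interferon gamma receptor, had 58.0 in male 1 and 26.4 in male 2, against 108.0 in female 1 and 86.3 in female 2 (log2 -1.12, relative -0.49, limma adjusted p = 0.106). Its start region (chr10:19591597-19592222) had called peaks in all 4 libraries and was among the highest of the members in male 1, female 1 and female 2. Ifnar1, a chain of the receptor of type I interferons, had 53.0 in male 1 and 24.2 in male 2, against 76.0 in female 1 and 64.1 in female 2 (log2 -0.80, relative -0.17). Ifnar2, the other chain of that receptor, had 14.8 in male 1 and 15.1 in male 2, against 13.5 in female 1 and 11.1 in female 2. It was the member with both males above both females (1 of 103, 0.971%), an order that 0.35% of all genes showed. The log2 difference of 0.17 (SE 0.350) did not pass (limma adjusted p = 0.674), and it lay at 0.80 relative to all genes, the highest value of any member. Its neighbouring regions at the start had a peak in male 2 (chr16:91372527-91372732, summit 16.2) and in male 1 (chr16:91372734-91372819, summit 21.2). It was also the member with a peak in both males and neither female, which 0.475% of all genes had. Its regions thus entered the data through the males, and the order of its heights is not independent of that. Ifna13, an interferon alpha gene, is linked to a region it shares with C87499 (59.4 and 29.4 in males 1 and 2, against 119.0 and 83.8 in females 1 and 2). The promoter window of Ifnar2 (RefSeq, GRCm38.p6, chr16:91372533-91372832, plus strand) covers most of both regions, and the capitals mark a GAS match at -214.
Ifnar2: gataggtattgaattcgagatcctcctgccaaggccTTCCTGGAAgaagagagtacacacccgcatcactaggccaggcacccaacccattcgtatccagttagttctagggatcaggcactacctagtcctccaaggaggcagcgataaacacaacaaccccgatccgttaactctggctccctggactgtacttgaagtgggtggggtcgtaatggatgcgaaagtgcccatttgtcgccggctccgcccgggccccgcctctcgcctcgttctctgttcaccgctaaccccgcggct

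All 4 IRF factors had both males below both females, an order that 76.4% of all genes showed, with a median of -0.84 (relative -0.21). Irf9, which forms the factor ISGF3 with STAT proteins, had 29.0 in male 1 and 18.4 in male 2, against 51.0 in female 1 and 64.1 in female 2 (log2 -1.04, relative -0.41, limma adjusted p = 0.113). Irf2, which competes with Irf1 for its sites, had 26.9 in male 1 and 11.0 in male 2, against 40.5 in female 1 and 40.7 in female 2 (relative -0.26). Irf1, an activator induced by interferon gamma and TNF, had 30.2 in male 1 and 32.3 in male 2, against 36 in female 1 and 36.7 in female 2 (log2 -0.17, relative 0.46, adjusted p = 0.712). The groups were close but did not overlap. Of its 3 regions the one at the start (chr11:53769828-53770082) had summits of 38.2 in male 1 and 63.9 in male 2, against 42.0 in female 1 and 40.3 in female 2. Male 2 was the highest library there. The IRF2-binding proteins Irf2bpl and Irf2bp2 had relative differences of -0.35 and -0.14. In the Irf1 promoter window (RefSeq, GRCm38.p6, chr11:53769764-53770063, plus strand), shown because it overlaps that start region, the capitals mark a GAS match at -90.
Irf1: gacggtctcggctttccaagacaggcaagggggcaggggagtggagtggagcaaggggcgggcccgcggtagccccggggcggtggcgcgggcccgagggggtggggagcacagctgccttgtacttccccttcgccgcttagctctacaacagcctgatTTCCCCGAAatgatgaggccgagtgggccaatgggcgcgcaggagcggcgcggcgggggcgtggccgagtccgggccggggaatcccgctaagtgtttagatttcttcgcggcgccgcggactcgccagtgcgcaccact

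The JAK kinases and STAT factors, 2 and 7 genes, all had both males below both females, an order that 76.4% of all genes showed. Their medians were -0.66 and -0.67, or -0.03 and -0.04 relative to all genes. Jak1, the kinase of most interferon and interleukin receptors, had 26.9 in male 1 and 18.4 in male 2, against 52.0 in female 1 and 41.5 in female 2 (log2 -0.83, limma adjusted p = 0.150). Jak2, used by the leptin and growth hormone receptors, had 33.9 in male 1 and 21.3 in male 2, against 49.0 in female 1 and 35.3 in female 2 (relative 0.14). Stat3, the factor of interleukin 6 and leptin signalling, had 42.4 in male 1 and 28.6 in male 2, against 83.0 in female 1 and 61.7 in female 2 (log2 -0.87, relative -0.25, adjusted p = 0.145). None of these passed. Stat2 had 42.4 and 25 in males 1 and 2, against 63.0 and 54.3 in females 1 and 2. Stat5a, a factor of growth hormone and prolactin signalling, had 29.0 and 30.1 in males 1 and 2, against 51.0 and 53.4 in females 1 and 2 (relative -0.04), and the libraries of each sex lay close together. The single region of Stat4 lies 105516 bp from its own start, so its height cannot be assigned to Stat4.

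The SOCS proteins, inhibitors of JAK and STAT signalling, ranged from -1.14 to 0.10. Of 6 members 5 had both males below both females, with a median of -0.62. Socs5 had 67.9 in male 1 and 19.8 in male 2, against 114.0 in female 1 and 78.9 in female 2 (log2 -1.14, relative -0.52, limma adjusted p = 0.101). Male 1 lay far above male 2 and nearer to female 2. Socs3, induced by Stat3 and an inhibitor of leptin and interleukin 6 signalling, had 36 in male 1 and 26.4 in male 2, against 52.7 in female 1 and 47.7 in female 2 (relative 0.06). Socs1, the main inhibitor of interferon gamma signalling, had 29.7 in male 1 and 23.5 in male 2, against 22.0 in female 1 and 26.3 in female 2. Male 1 was the highest library and female 1 the lowest, and the sexes overlapped. The log2 difference of 0.10 (SE 0.384) did not pass (adjusted p = 0.824), and lay at 0.73 relative to all genes. Its region (chr16:10785630-10785767), 128 bp before the start, had a called peak in male 1 alone and is linked also to Prm2, Prm3 and Tnp2. The region thus entered the data through a male, and the difference is not independent of that. The promoter window (RefSeq, GRCm38.p6, chr16:10785487-10785786, minus strand), shown because Socs1 lay far above the shift of all genes, has ISRE matches at -83 and -77, which overlap and are in capitals. Both matches lie outside the called region, on its side nearer to the start.
Socs1: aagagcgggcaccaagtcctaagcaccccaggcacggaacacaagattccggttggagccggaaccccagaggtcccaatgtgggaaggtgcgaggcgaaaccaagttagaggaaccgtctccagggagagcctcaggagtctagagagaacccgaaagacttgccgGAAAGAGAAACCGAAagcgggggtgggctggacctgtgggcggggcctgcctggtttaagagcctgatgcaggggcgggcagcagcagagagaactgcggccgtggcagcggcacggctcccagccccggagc

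With each library centred on its own median, the members spread on both sides, as the heat map of centred heights shows. Both males then lay below both females in 28 members (27.2%), where 21.7% of all genes did, and above both in 20 (19.4%), where 18% did. No member passed the test on this scale, and the smallest limma adjusted p over all genes was 0.609. Male 2 had the lowest heights and the fewest peak intervals, 4049, against 5484 in male 1, 10238 in female 1 and 8022 in female 2. Its intervals were also longer, with a median of 284 bp, against 171 in male 1, 160 in female 1 and 165 in female 2. In this library several members ranked higher among all genes than in the other libraries, and others lower. Irf1 stood at the 93.4 percentile in male 2 and the 71.0 in male 1, against the 44.5 in female 1 and 67.6 in female 2. Nfkbia stood at the 93.2 percentile in male 2 and the 54.0 in male 1, against the 69.1 in female 1 and 56.0 in female 2. Tnfaip3 stood at the 82.6 percentile in male 2 and the 33.4 in male 1, against the 21.2 in female 1 and 21.8 in female 2. In each of these 3 genes the highest rank was that of male 2. Other members had their lowest rank there, such as Il4ra (25.4 percentile) and Il2rg (2.3 percentile). In height, male 2 was above male 1 in 19 members (18.4%), against 14.3% of all genes, and Il3ra, Nfkbia and Cxcl16 had the largest such gaps.

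**Figure D3:**
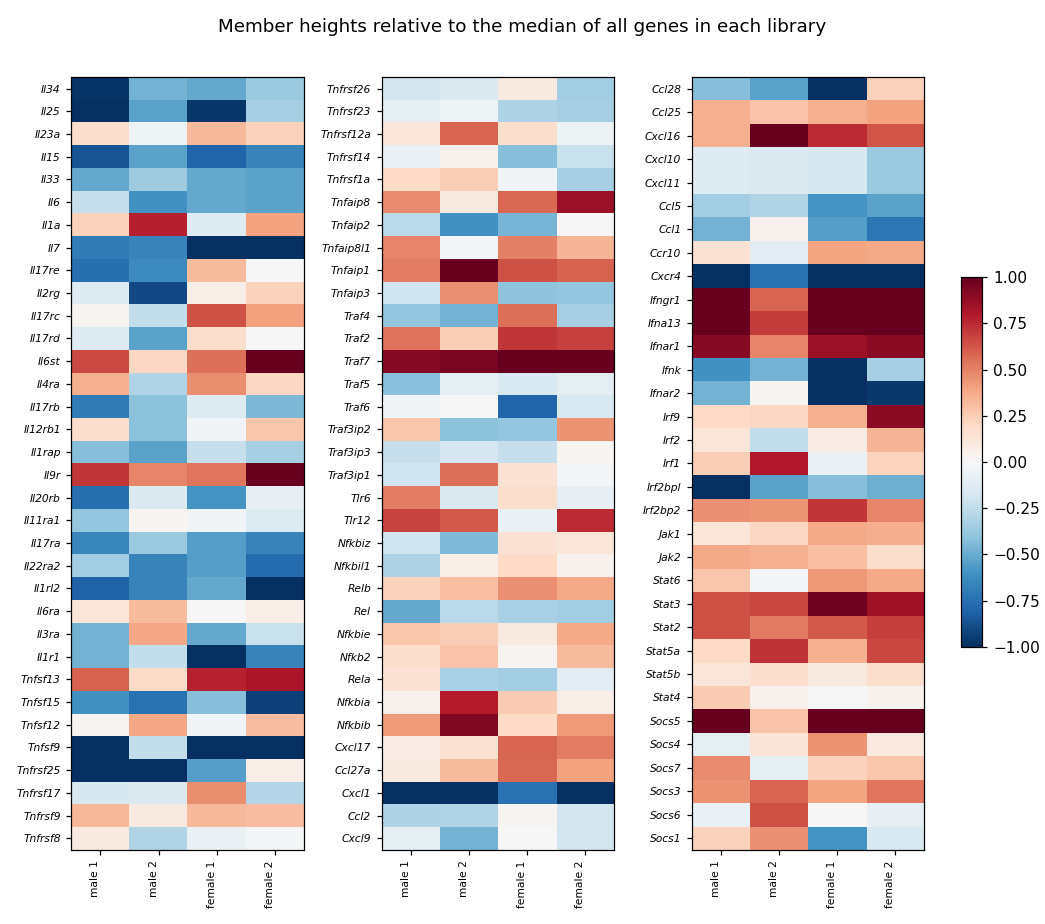
Colour shows log2(height + 9) minus the library's median over all genes (red above, blue below, colours saturate at the ends of the bar) for 101 of the 103 genes (rows, by role and then by relative difference) in male 1, male 2, female 1 and female 2 (columns). Tnfrsf25 is blue in both males and pale in female 2, and Irf1, Nfkbia, Nfkbib and Tnfaip3 are redder in male 2 than in the other libraries.

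The place of the open regions and the libraries in which their peaks were called are given as shares of genes, with no test. A summit within 1000 bp of the start was found for 56 members (54.4%), against 69.7% of all genes, while 14 (13.6%) had the nearest summit inside the gene, 15 (14.6%) upstream and 18 (17.5%) downstream, against 8.66%, 11.0% and 10.7% of all genes. Peaks in all 4 libraries were linked to 28 members (27.2%), against 35.9% of all genes, and a peak in a single library to 32 (31.1%), against 19.8%. A peak was called for 57 members in male 1 (55.3%) and 36 in male 2 (35.0%), against 88 in female 1 (85.4%) and 76 in female 2 (73.8%), and over all genes the shares were 61.2% and 49.1% in males 1 and 2, against 89.7% and 76.7% in females 1 and 2. A peak in both females and neither male was linked to 11 members (10.7%), a share near the 11.7% of all genes. Members with a summit at the start and other members had median log2 differences of -0.69 and -0.70. In all, 24 members (23.3%) shared every region with another gene, against 39.5% of all genes.

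**Figure D4:**
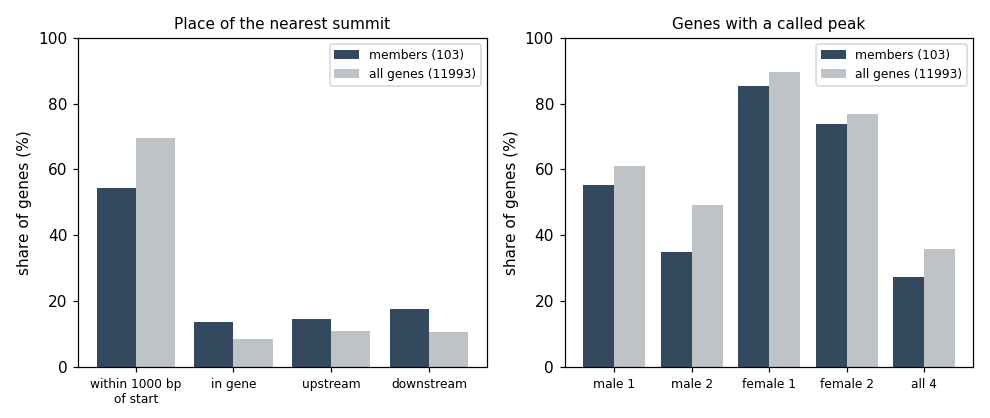
Share of genes in percent (vertical axis) by the place of the nearest summit (left) and by the library in which a peak was called (right), for the 103 genes (dark) and all 11993 genes (light). Starts hold 54.4% of the 103 genes and 69.7% of all genes, and male 2 has peaks for 35.0% and 49.1%.

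Partners of these pathways whose symbols the rule does not take had a median close to that of all genes. Of 116 listed partners 80 were measured, and 0 passed the test in limma. Of these 80, 25 had an unadjusted p under 0.05, all lower in males, where 3768 of the 11993 genes were lower. The median of the 80 was -0.63, or -0.01 relative to all genes. Both males lay below both females in 63 (78.8%), against 76.4% of all genes. Mavs, the mitochondrial adaptor of RNA sensors, had 30.4 in male 1 and 11.0 in male 2, against 67.0 in female 1 and 46.0 in female 2 (log2 -1.20, limma adjusted p = 0.0953). Ripk2, the kinase of NOD receptors, had 48.1 in male 1 and 19.1 in male 2, against 99.0 in female 1 and 69.9 in female 2 (log2 -1.20, adjusted p = 0.0971). Male 2 was the lowest library in both. Of 36 interferon-stimulated genes 17 were measured, 4 of them members, with 0 that passed, 1 at an unadjusted p under 0.05 (Irf9) and a median of -0.65, or -0.02 relative to all genes.

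Markers of cells that carry these receptors were measured in part, and their share in the results was not tested. Of 12 macrophage markers 2 were measured (Cd68 and Cd14), with summed heights of 48.8 and 31.0 in males 1 and 2, against 79.5 and 66.6 in females 1 and 2. Of 10 markers of T and innate lymphoid cells 4 were measured, with sums of 108.4 and 52.3 in males 1 and 2, against 171.4 and 158.3 in females 1 and 2. Of 6 pan-leukocyte markers 3 were measured, with sums of 57.6 and 39.3 in males 1 and 2, against 90.5 and 53.8 in females 1 and 2, and a relative median of 0.26. B cell, neutrophil and mast cell, and endothelial lists had sums of 78.5 and 51.0, 36.4 and 19.8, and 74.9 and 54.7 in males 1 and 2, against 130.5 and 114.7, 54.0 and 39.5, and 138.0 and 104.0 in females 1 and 2. None of these passed the test. Many of these heights cannot be assigned to the marker alone: every region was shared with another gene for 1 of the 2 macrophage, 2 of the 4 T and innate lymphoid, 3 of the 3 B cell and 2 of the 3 pan-leukocyte markers. Among them Lck, with 50.2 and 19.1 in males 1 and 2, against 66.0 and 59.2 in females 1 and 2, is linked to a region of Hdac1 that lies 30825 bp from its start. Markers of mammary epithelium, which in females grows into this fat depot, stood lower: 4 of 12 were measured, with sums of 45.6 and 18.4 in males 1 and 2, against 116.0 and 92.9 in females 1 and 2 and a relative median of -0.65. St14 and Spint2 among them passed as lower in males (limma adjusted p = 0.0283 each). In males 1 and 2 they had few tags, 3 and 2 for St14 and 4 and 5 for Spint2. Each had a called peak in female 1 alone, and Cldn3 had one in female 2 alone. The calls of St14 and Spint2, and the median, are thus not independent of how these regions entered the data. The region of Spint2 lies 33497 bp from its start and is linked also to Yif1b, and Cldn3 shares its region with Wbscr25. Grhl1, with peaks in all 4 libraries, was at -0.11 relative to all genes. In these markers, as at Tnfrsf25 and Il17re, both males were below both females, an order that 76.4% of all genes showed. The part of epithelium in the result was not tested.

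The calls depend on the scale of the deposited heights and on the libraries used. With libraries centred, 0 members passed, and Tnfrsf25 was at -1.18 and Il17re at -0.85. With genes up to the 25th percentile of mean height left out, Tnfrsf25 was not among the genes tested and Il17re stayed at -1.47 (limma adjusted p = 0.141). Without male 2, 0 members passed, with Tnfrsf25 at -1.80 (adjusted p = 0.0656) and Il17re at -1.28 (adjusted p = 0.317). Tnfrsf25 alone passed without female 1, where Il17re was at -1.17 (adjusted p = 0.828), and without female 2, where Il17re was at -1.76 (adjusted p = 0.200). Without male 1, Tnfrsf25 was at -1.79 and Il17re at -1.65.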

How the data were processed

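ATAC-seq libraries came from 2 male and 2 female samples, per the labels. The tools were BWA and MACS2 2.1.0 with mm10, per the submitters' processing notes; no source used here gives filters, duplicate removal or read shifts. Deposited values are a signal, the coverage by tags at the peak, which the authors averaged over a gene's regions, per the file headers. For genes with 1 region, 100.0% of values were whole multiples of a step per library (within 2% of the step), so heights were scaled before deposit, on a basis that no source used here gives. Heights are not counts, and no count test was used. Called peaks and regions are the authors'; peaks were called per library and merged.

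Heights above 0 in at least 2 libraries were required, which all 11993 genes met. The log2 of height + 9 was used (9 being the rounded-up 5th percentile of non-zero heights), which understates the change of low genes. The limma package 3.58.1 (R 4.3.3) compared the sexes, with trend and Benjamini-Hochberg adjustment over all genes; the spread was taken wholly from genes of like height (2 residual degrees of freedom). The exact permutation test of 2 against 2 libraries cannot give a p below 0.33. The script was tested on simulated data. Python 3.11.15, pandas 2.3.3, numpy 2.4.6 and matplotlib 3.10.9 were used.

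Members and lists were chosen with earlier results of these data known. Named members are those that passed, those nearest the threshold, those with both males higher, up to 4 per role by p, 2 by height and 1 by highest difference, and a set of pathway genes; others (the remaining interleukin 17 receptors, and Il4ra, Il6, Il6ra, Cxcl9, Cxcl10, Cxcl11, Ccl28, Tnfrsf14, Il3ra and Stat4) were chosen after their values were seen. A closing full stop in the symbol rule was read as punctuation. Values of 2 members are not reported here. All 103 gene IDs matched the reference table. Exon and UTR positions were not used. Alternatives covered the pseudocount (1 and 36), filters, centring, quantile normalization, trend, a replicate block, a row per set of regions, each library left out and, added after seeing the data, heights in tags.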

Additional observations from a re-analysis of the deposited data

How the results depend on the processing

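With pseudocounts of 1 or 36, no filter or a row per set of regions, Tnfrsf25 and Il17re passed in each case. With a pseudocount of 36 the median of the members was -0.38, and with 1 their relative median was -0.10. With genes up to the 25th percentile of mean height left out (8994 genes tested), with centred libraries and with quantile normalization, 0 genes and 0 members passed; the median of the members was -0.07 with centring and -0.08 with quantile normalization, since both remove the shift between libraries. Limma without trend called 416 genes and 7 members. With the replicate number as a block, 6918 genes and 61 members passed as lower in males, and 7 genes passed as higher. The replicate block has no basis in the labels, and the deviations of same-numbered libraries had a correlation of 0.02 across genes, so the numbers were not taken to pair the samples. In tags without the scaling per library, an alternative added after seeing the data, 4 genes and 1 member (Tnfrsf25) passed. With each library left out in turn, calls ranged from 0 to 6391 for all genes and from 0 to 58 for members; without male 1, 6391 genes passed, without male 2 0, without female 1 19. The relative median of the members then ranged from -0.09 to -0.02, and their median from -0.92 to -0.43.

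Of 74 named members, 25 had a positive log2 difference, male minus female, with centred libraries where it was negative on the deposited scale: Ccl1 (0.42), Cxcl16 (0.01), Cxcr4 (0.39), Ifnk (0.21), Il15 (0.04), Il1a (0.37), Il1r1 (0.53), Il7 (0.50), Irf1 (0.44), Jak2 (0.13), Nfkbia (0.26), Nfkbib (0.36), Rela (0.13), Socs3 (0.05), Tlr12 (0.30), Tlr6 (0.14), Tnfaip1 (0.17), Tnfaip3 (0.53), Tnfrsf12a (0.29), Tnfrsf1a (0.40), Tnfsf12 (0.07), Tnfsf15 (0.01), Tnfsf9 (0.48), Traf3ip1 (0.11) and Traf6 (0.46). With quantile normalization 22 did: Ccl1 (0.39), Cxcr4 (0.35), Ifnk (0.15), Il1a (0.36), Il1r1 (0.48), Il7 (0.40), Irf1 (0.43), Jak2 (0.15), Nfkbia (0.24), Nfkbib (0.34), Rela (0.12), Socs3 (0.08), Tlr12 (0.34), Tlr6 (0.17), Tnfaip1 (0.15), Tnfaip3 (0.51), Tnfrsf12a (0.29), Tnfrsf1a (0.41), Tnfsf12 (0.08), Tnfsf9 (0.43), Traf3ip1 (0.11) and Traf6 (0.44). In tags 10 did: Ccl1 (0.03), Il1a (0.01), Il1r1 (0.11), Il7 (0.05), Irf1 (0.09), Nfkbib (0.02), Tnfaip3 (0.15), Tnfrsf1a (0.04), Tnfsf9 (0.02) and Traf6 (0.07). With each library left out in turn, differences that changed sign ranged from -0.41 to 0.02 for Ccl1, -0.21 to 0.03 for Tnfaip3, -0.49 to 0.07 for Tnfrsf1a, -0.38 to 0.07 for Traf6, -0.03 to 0.23 for Socs1, -0.36 to 0.09 for Tnfsf9, -0.22 to 0.03 for Il1r1, -0.34 to 0.11 for Il7 and -1.04 to 0.09 for Tlr6. None of these positive differences passed the test. Where a sex was left with 1 library, that library was assumed to vary like the others. The cause of these changes was not tested, other than that centring and quantile normalization take away the shift between libraries.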
